A study of Mus musculus with 8 samples.

Results

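The transcripts described here are those of 10 mouse genes whose proteins build, coat or load the triglyceride-rich lipoproteins that liver secretes: Apoa1, Apoa2, Apoa4, Apoa5, Apob, Apoc1, Apoc2, Apoc3, Apoe and Mttp. They were chosen by gene symbol, and each matched 1 row among the 55536 rows with a gene identifier in the deposited count table. All 10 passed the filter on low counts, as did 15375 genes in all. Livers came from C57BL/6 mice aged 2 months. Every animal received 0.1 OD of adenovirus and was fasted overnight before the liver was taken 1 week later. In 4 samples (knockdown) the virus carried a short hairpin RNA against Eif4ebp3, a repressor of cap-dependent translation, and in 4 samples (control) a hairpin against the bacterial gene lacZ. Both groups were therefore infected, and livers without virus were not analysed here. The sources used here do not give the sex of the mice, the promoter of the hairpin or the share of liver cells that took up virus.

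Very-low-density lipoprotein (VLDL) forms in the endoplasmic reticulum of the hepatocyte around a single molecule of apolipoprotein B, which receives triglyceride from the microsomal triglyceride transfer protein encoded by Mttp. Smaller, exchangeable apolipoproteins then sit on the particle surface and govern its fate in plasma, as activators or inhibitors of lipoprotein lipase and as ligands for hepatic receptors. Apoa1 and Apoa2 encode the main proteins of high-density lipoprotein (HDL), which takes up cholesterol from tissues.

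Total estimated counts ranged from 24371461 to 32389444 per sample. Levels are given as CPM, counts scaled to a common library size, after TMM scaling, which sets the typical gene to no change, and fold changes as knockdown over control on the log2 scale with a standard error. A gene is said to have risen or fallen where edgeR's quasi-likelihood test gave a Benjamini-Hochberg adjusted p under 0.05 over all 15375 genes. The targeted gene Eif4ebp3 lay below all controls in each knockdown sample (9.62 to 37.2 against 49.3 to 289 CPM). Control replicate 4 was the lowest control and knockdown replicate 3 the highest knockdown sample. With scaling to the total count instead, the median log2 fold change of all genes moved from 0.00 to 0.56, a shift of 0.567, so values under both scalings are printed for each member below. The labels do not say whether every sample came from an animal of its own, and p-values reflect only how much these samples varied, which may be technical.

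Of the 10 transcripts, 9 fell and 1, Apoc2, rose in the knockdown livers. Over all genes tested, 27.8% were called lower and 29.5% higher, 57.2% in either direction. The falls ranged from 1.43-fold for Mttp to 3.17-fold for Apoa2, while Apoc2 rose 2.14-fold. The median log2 fold change of the 10 was -0.89, beside 0.00 for all genes tested. The groups did not overlap for 8 of the 9 that fell, where 24.7% of all genes were apart and lower, and they did not overlap for Apoc2, where 27.4% of all genes were apart and higher (52.1% in either direction). Of the 10, the authors' deposited table marks 5 as changed (Apoa1, Apoa2, Apoa5, Apob and Apoc2). It marks 6.76% of its 55536 listed genes, but these include genes too low to be tested here, so the shares are not alike. Apoc1, Apoc3, Apoe and Mttp were left unmarked there with log2 fold changes of -0.98, -0.68, -0.77 and -0.51. Their adjusted p in that table was 2.32e-07 or lower.

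**Figure D1:**
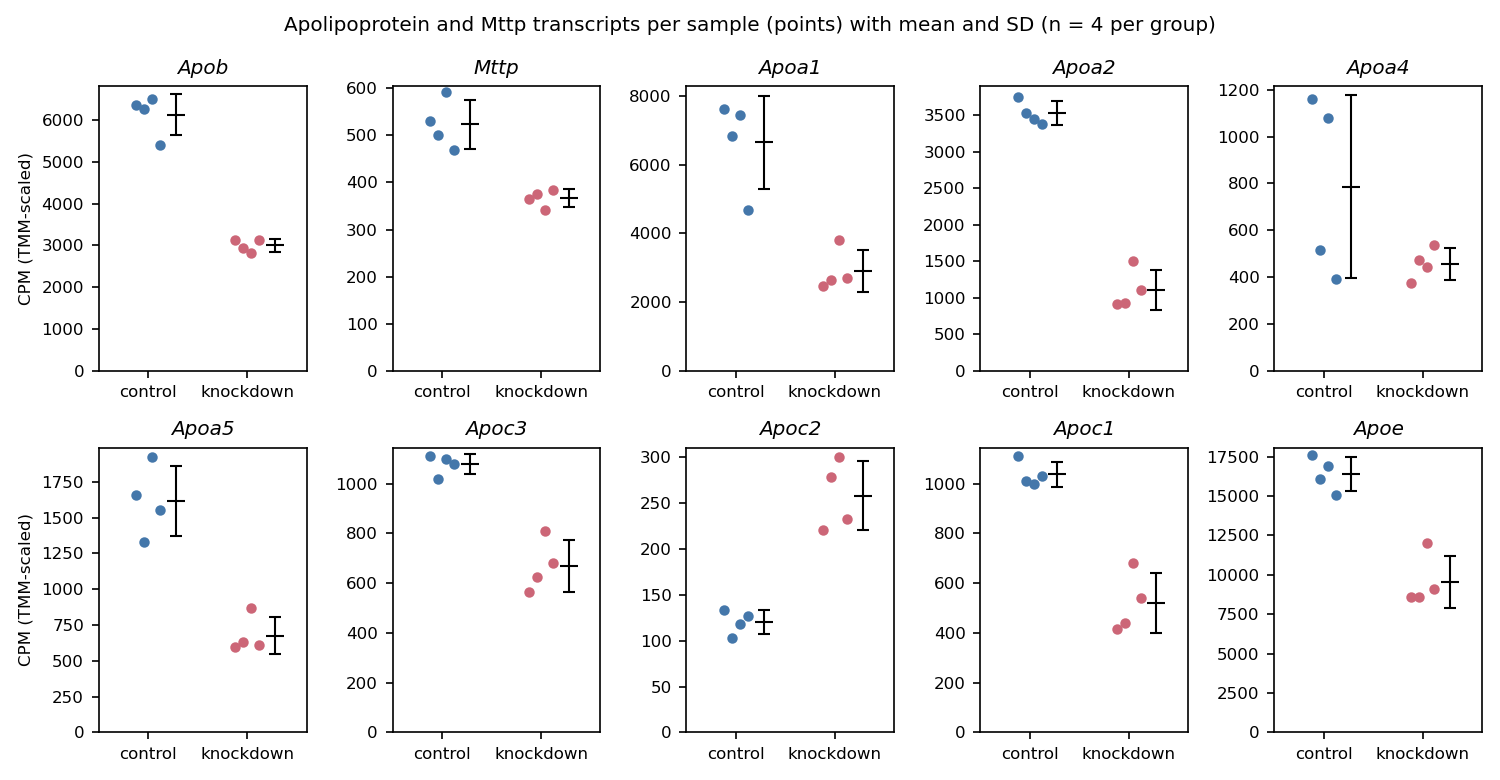
TMM-scaled CPM (vertical axis, from 0) of each of the 10 transcripts in the 4 control and 4 knockdown samples (points), with the mean and SD beside them. The groups are apart in every panel except that of Apoa4, where 2 controls lie among the knockdown samples, and Apoc2 is the only panel in which the knockdown samples are the higher group.

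The assembly pair came first. Apob, on chromosome 12 at 7977648 to 8016835 (plus strand, mm10), encodes the structural protein of VLDL and held 6350, 6260, 6500 and 5400 CPM in control replicates 1 to 4 against 3120, 2940, 2810 and 3130 CPM in knockdown replicates 1 to 4. All 4 knockdown samples lay close together and well below the lowest control. The mean went from 6120 ± 496 to 3000 ± 157 CPM (SD, n = 4 each). Apob fell by 1.03 ± 0.11 in log2 units (adjusted p = 1.62e-05, edgeR), and by 0.46 ± 0.09 under total-count scaling (adjusted p = 0.00109, edgeR). Mttp, on chromosome 3 at 138089854 to 138144968 (minus strand), held 530, 501, 592 and 469 CPM in the controls against 364, 376, 341 and 384 CPM after knockdown. The groups were apart, with the smallest difference of the 10 genes. Mttp fell by 0.51 ± 0.09 (adjusted p = 0.000623, edgeR), but under total-count scaling the value was 0.06 ± 0.09 (adjusted p = 0.548, edgeR), so its direction depends on the scaling. In its exons, 457 of 6206 bases are shared with Trmt10a on the opposite strand, whose counts came to 1.84% of those of Mttp.

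Stretches upstream of 3 start sites are shown for the genes on which the results turn: Apob, which carries the particle, Apoa2, which fell most, and Apoc2, which rose. They come from RefSeq (GRCm38.p6), written 5′ to 3′ on the strand of the gene, and each ends at the base before the GENCODE start and holds no annotated exon base. Capitals mark TATAAA. In Apob that motif begins 31 bases before the GENCODE start and in Apoa2 212 bases before it.

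Apob, chr12:7977427-7977647, plus strand: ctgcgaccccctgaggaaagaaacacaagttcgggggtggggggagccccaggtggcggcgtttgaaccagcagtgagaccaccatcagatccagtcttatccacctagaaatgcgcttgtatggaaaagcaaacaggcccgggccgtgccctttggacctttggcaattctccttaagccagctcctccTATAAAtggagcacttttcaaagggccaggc

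Apoa2, chr1:171224804-171225053, plus strand: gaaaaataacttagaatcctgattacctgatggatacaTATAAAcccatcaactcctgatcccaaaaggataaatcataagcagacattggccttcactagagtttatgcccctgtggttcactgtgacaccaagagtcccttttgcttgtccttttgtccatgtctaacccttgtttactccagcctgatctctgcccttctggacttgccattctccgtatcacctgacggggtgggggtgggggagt

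Apoc2, chr7:19677942-19678082, minus strand: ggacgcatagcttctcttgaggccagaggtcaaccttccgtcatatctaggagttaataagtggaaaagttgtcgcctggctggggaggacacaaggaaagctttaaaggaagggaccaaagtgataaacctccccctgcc

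The RefSeq table held 8 of the 10 genes, all but Apoc1 and Apoc3. The 8 had 12 listed starts. Over the 250 bases before each listed start, TATAAA on either strand was found in a window of 4 of the 8 (Apoa2, Apoa5, Apob and Apoe). For Apoe that window belongs to a listed start inside the gene, and the window before its GENCODE start held no match. TATAAA was found in 12.4% of 32851 such windows of all genes. The first count is per gene and the second per window, and a gene with several windows has more chances, so the 2 are not alike. CAAAGTCCA, an HNF4-type motif, and CAAAGGTCA, a PPAR-type motif, were found in 0 of the 8 on either strand, and in 0.384% and 0.426% of all windows. The last 2 motifs share their first 5 letters, and no match says only that these exact letters are not in the windows.

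The transcripts of both main HDL proteins fell. Apoa1, on chromosome 9 at 46228580 to 46230466, encodes the scaffold protein of HDL that activates cholesterol esterification, and held 7620, 6830, 7450 and 4680 CPM in the controls against 2480, 2640, 3810 and 2700 CPM in the knockdown samples. Control replicate 4 was the lowest control and knockdown replicate 3 the highest knockdown sample, and these did not meet. From a mean of 6650 ± 1350 to 2910 ± 609 CPM (SD, n = 4 each), Apoa1 fell by 1.19 ± 0.19 in log2 units (adjusted p = 0.000276, edgeR), and by 0.62 ± 0.14 under total-count scaling. Apoa2, on chromosome 1 at 171225054 to 171226379, encodes the second protein of HDL and held 3750, 3530, 3450 and 3380 CPM in the controls against 909, 934, 1500 and 1100 CPM in the knockdown samples. The controls were tight, with a coefficient of variation of 4.57%, and the highest knockdown sample lay far below all of them. Apoa2 fell by 1.67 ± 0.16, to 31.5% of the control level (adjusted p = 8.79e-06, edgeR), the largest fall of the 10, and by 1.11 ± 0.13 under total-count scaling.

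Apoa4 and Apoa5 lie beside Apoa1 on chromosome 9. Apoa5 (46268633 to 46271919) encodes a scarce plasma protein that promotes triglyceride clearance by lipoprotein lipase. It held 1660, 1330, 1920 and 1550 CPM in the controls against 593, 633, 868 and 608 CPM after knockdown, with the groups apart. Apoa5 fell by 1.26 ± 0.15 (adjusted p = 4.38e-05, edgeR) and by 0.69 ± 0.13 under total-count scaling. Apoa4 (46240696 to 46243459) encodes a fasting-responsive surface protein that in mouse liver is tied to the expansion of VLDL. It held 1160, 514, 1080 and 394 CPM in the controls against 374, 474, 445 and 539 CPM after knockdown. Control replicates 1 and 3 were high, while controls 2 and 4 lay in the range of the knockdown samples, and the controls had a coefficient of variation of 49.5%, the widest of the 10 genes. The difference of -0.78 ± 0.30 passed the test narrowly (adjusted p = 0.0466, edgeR). It did not pass with DESeq2 (adjusted p = 0.0756), nor in the authors' deposited table (adjusted p = 0.0757), and it was -0.19 under total-count scaling. The call was also lost without control replicate 1 (-0.54) or 3 (-0.60) and without any of knockdown replicates 1 to 4 (-0.70, -0.81, -0.77 and -0.87).

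The remaining surface protein transcripts that fell with TMM scaling were those of Apoc3, Apoc1 and Apoe. Apoc3, on chromosome 9 at 46232933 to 46235636, encodes an inhibitor of lipoprotein lipase and of remnant uptake, and held 1110, 1020, 1100 and 1080 CPM in the controls against 565, 626, 811 and 681 CPM in the knockdown samples. Apoc3 fell by 0.68 ± 0.11 (adjusted p = 0.000414, edgeR), and the value was -0.12 under total-count scaling (adjusted p = 0.273, edgeR). Apoc1, on chromosome 7 at 19689481 to 19692660, encodes a small protein that interferes with receptor binding of remnants. It held 1110, 1010, 998 and 1030 CPM in the controls against 417, 441, 680 and 542 CPM after knockdown, and fell by 1.00 ± 0.14 (adjusted p = 0.000164, edgeR), or by 0.44 ± 0.12 under total-count scaling. Apoe, at 19696109 to 19699188 on the same chromosome, encodes the ligand through which remnants are taken up by hepatic receptors. Its levels were 17600, 16100, 16900 and 15100 CPM in the controls against 8590, 8590, 12000 and 9080 CPM after knockdown. The groups of these 3 genes were apart, and knockdown replicate 3 was the highest knockdown sample for each. Apoe fell by 0.78 ± 0.14 (adjusted p = 0.000842, edgeR), and the value was -0.21 under total-count scaling (adjusted p = 0.0913, edgeR). Apoe is also made by macrophages and stellate cells, markers of which rose in the same samples (values below).

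Apoc2 was the member that rose. It lies on chromosome 7 at 19671579 to 19677941 (minus strand) and encodes the cofactor that lipoprotein lipase needs for activity. Apoc2 held 134, 103, 118 and 127 CPM in control replicates 1 to 4 and 221, 279, 301 and 233 CPM in knockdown replicates 1 to 4. Every knockdown sample was above every control. From a mean of 121 ± 13.4 to 259 ± 37.5 CPM (SD, n = 4 each), Apoc2 rose by 1.10 ± 0.12 in log2 units (adjusted p = 2.02e-05, edgeR), and by 1.66 ± 0.11 under total-count scaling. Macrophages also make Apoc2, and 11 of 14 macrophage markers tested rose in the same samples; their part in this result was not tested.

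Its locus holds genes that went the other way. Apoc4, which encodes another small exchangeable apolipoprotein, ends 142 bases upstream of Apoc2 and held 416, 344, 399 and 294 CPM in the controls against 143, 157, 224 and 165 CPM after knockdown. Apoc4 fell by 1.08 ± 0.15 (adjusted p = 0.000131, edgeR), with the groups apart. Gm44805, an annotated gene that spans Apoc4 and Apoc2 on the same strand, shares 646 of the 813 exon bases of Apoc2, so how the authors' counting divided reads between these rows bears on both values. Gm44805 held 37.8 ± 5.0 CPM in the controls against 17.7 ± 4.15 CPM after knockdown (SD, n = 4 each) and fell by 1.09 ± 0.16 (adjusted p = 0.000159, edgeR). With Apoc2 and Gm44805 summed into 1 row, the sum rose by 0.80 ± 0.11 (adjusted p = 0.000133, edgeR). With Apoc4 added as well, the sum of the 3 genes was 522 ± 64.5 CPM in the controls against 449 ± 72.7 CPM after knockdown, a difference of -0.22 ± 0.13 that did not pass (adjusted p = 0.17, edgeR). Within that sum, which needs no scaling, Apoc2 took 22.7, 21.3, 21.2 and 28% of the counts in the controls and 58.4, 61.8, 54.9 and 56.0% in the knockdown samples. The share was thus higher in each knockdown sample than in any control. These sums were chosen after the values were seen. Both were fitted with TMM scaling only, so whether the sign of -0.22 holds under total-count scaling was not examined.

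**Figure D2:**
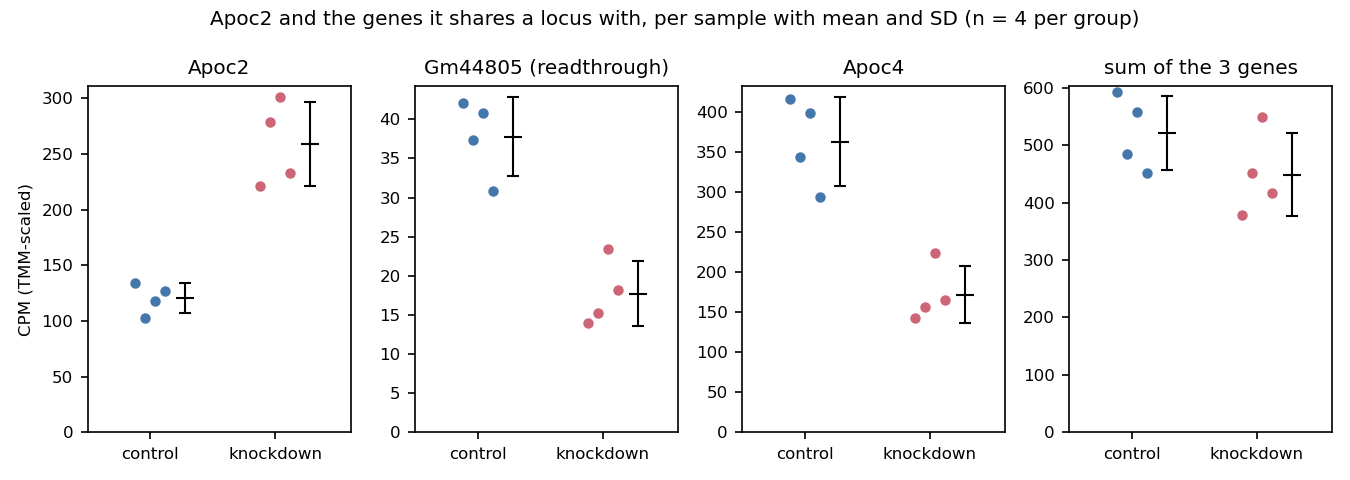
TMM-scaled CPM (vertical axis, from 0) of Apoc2, the spanning gene Gm44805, Apoc4 and the sum of the 3 in each control and knockdown sample (points), with the mean and SD beside them. Apoc2 is higher in all knockdown samples (221 to 301 against 103 to 134 CPM), Gm44805 and Apoc4 are lower in all of them, and the groups overlap for the sum.

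The scaling decided how many of the falls were called. Under total-count scaling 5 of the 10 fell (Apoa1, Apoa2, Apoa5, Apob and Apoc1), where 7.72% of all genes were called lower, and 1, Apoc2, rose, where 63.9% were called higher. The median of the 10 was then -0.32, beside 0.56 for all genes. Apoa4, Apoc3, Apoe and Mttp did not pass under that scaling. Relative to the median gene of each scaling the members stood at nearly the same distance, since their own median moved by 0.565 and that of all genes by 0.567.

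**Figure D3:**
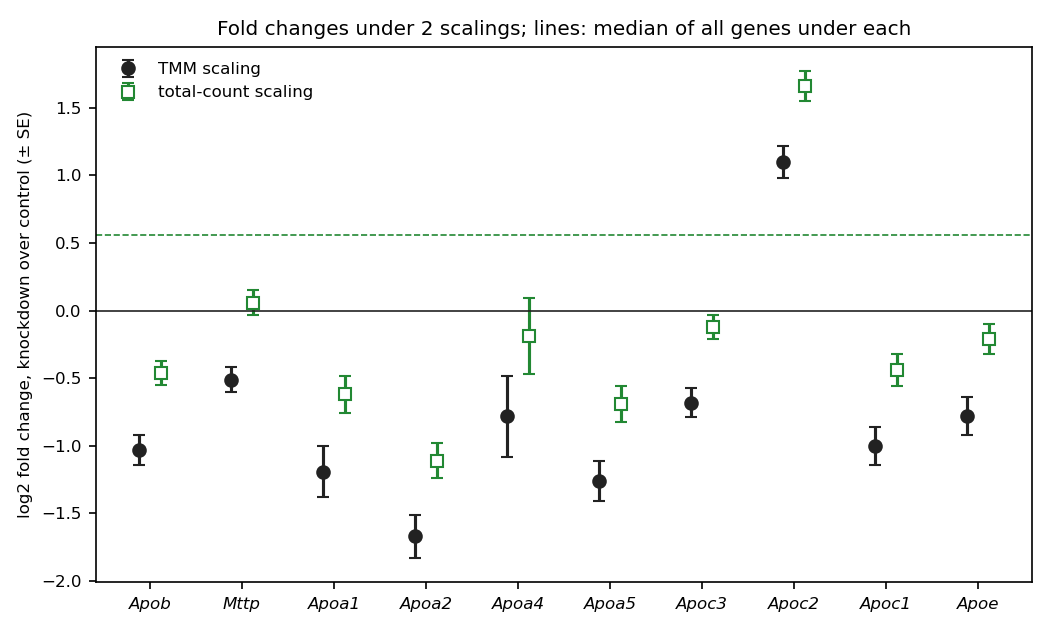
Log2 fold change of knockdown over control (vertical axis, ± SE) of the 10 transcripts under TMM scaling (filled circles) and total-count scaling (open squares), with horizontal lines at the median of all genes under each (0.00, solid, and 0.56, dashed). Under both, 9 transcripts lie below the line of their own scaling and Apoc2 above it, and Mttp lies at 0.06 under total-count scaling.

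Ratios of 2 transcripts within a sample do not depend on scaling between samples, and 6 were compared by an exact two-sided permutation test over samples, for which the smallest possible p is 0.0286. That p is reached whenever the groups do not overlap, as they did not for 52.1% of single genes. How often the ratios of other gene pairs are apart was not examined. The shifts follow from the fold changes given above and are not separate evidence. The ratio of Mttp to Apob counts was 0.0835, 0.0801, 0.0911 and 0.0869 in the controls and 0.117, 0.128, 0.122 and 0.123 in the knockdown samples. It was higher in all 4 knockdown samples, by 0.52 on the log2 scale or 1.43-fold (exact permutation p = 0.0286, adjusted p = 0.0429 over the 6). The transfer protein transcript was thus present in greater proportion to that of its acceptor. The ratio of Apoc2 to Apoc3, the activator over the inhibitor of lipoprotein lipase, was 0.121, 0.102, 0.107 and 0.118 in the controls and 0.392, 0.445, 0.371 and 0.343 in the knockdown samples. That was the largest shift of the 6, 1.79 on the log2 scale or 3.46-fold (exact permutation p = 0.0286, adjusted p = 0.0429), and 1.49 with Gm44805 added to Apoc2. The ratio of Apoa5 to Apoc3, neighbours that favour and oppose triglyceride clearance, fell by 0.57 on the log2 scale, from 1.5, 1.31, 1.74 and 1.44 to 1.05, 1.01, 1.07 and 0.893 (exact permutation p = 0.0286, adjusted p = 0.0429). The 2 ratios that involve Apoc3 therefore moved in opposite directions.

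Apoa2 fell more than its HDL partner: the ratio of Apoa1 to Apoa2 was 2.03, 1.94, 2.16 and 1.39 in the controls and 2.72, 2.83, 2.54 and 2.45 in the knockdown samples, higher by 0.51 on the log2 scale (exact permutation p = 0.0286, adjusted p = 0.0429). Control replicate 4 was the lowest control here as well. Apoe over Apoc1, adjacent genes, differed by 0.23, with overlapping groups (exact permutation p = 0.0571, adjusted p = 0.0686). Apoa4 over Apoa1 differed by 0.54, with overlapping groups and an SD of 0.53 among the controls (n = 4; exact permutation p = 0.171).

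**Figure D4:**
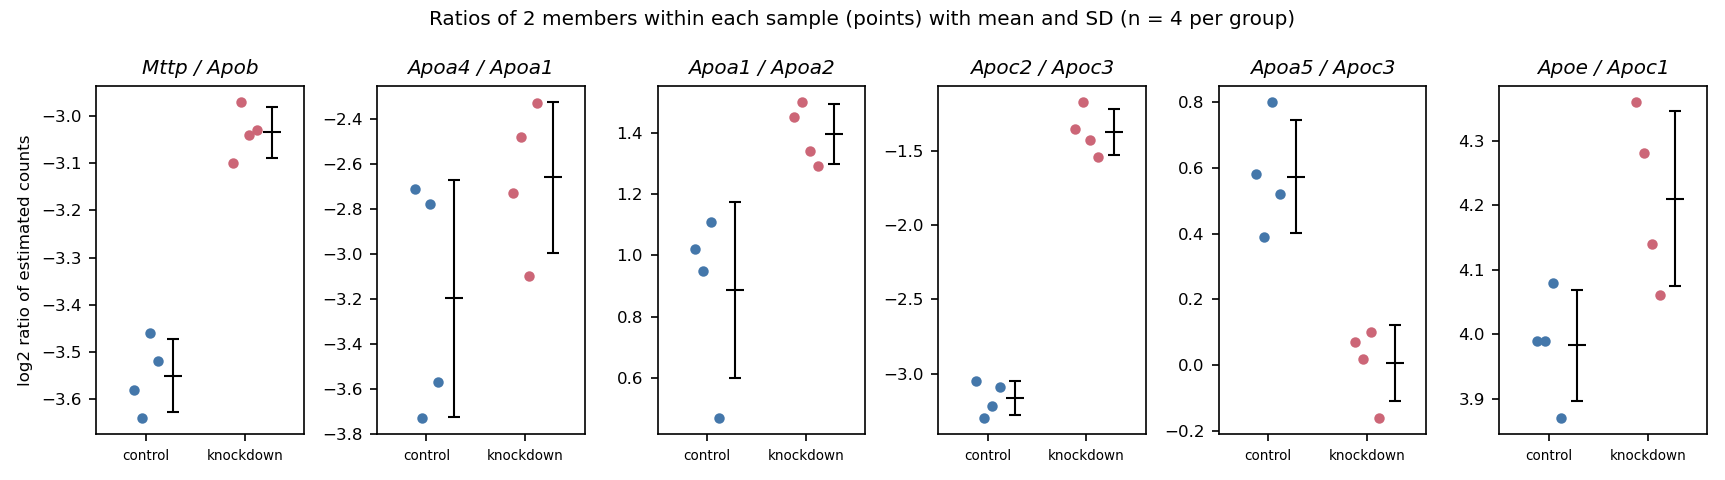
Log2 ratio of the estimated counts of 2 transcripts within each sample (vertical axis; the axes do not start at 0) for 6 pairs, with the 4 control and 4 knockdown samples as points and the mean and SD beside them. The groups are apart for Mttp over Apob, Apoa1 over Apoa2, Apoc2 over Apoc3 and Apoa5 over Apoc3, and overlap for the other two pairs.

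Per transcript length, Apoc2 moved furthest up the order of levels. On the TPM scale, which divides counts by gene length, computed with the authors' gene lengths and without TMM factors, Apoe led in the controls with 19300 ± 294 TPM (SD, n = 4), rank 5 among all genes, followed by Apoa2 (11100 ± 301), Apoa1 (9180 ± 1460), Apoc1 (2810 ± 142) and Apoc3 (2190 ± 134). Apoa1 ranged from 7040 to 10300 TPM, short of the 10800 to 11500 TPM of Apoa2. Apoa5 (924 ± 136), Apob (632 ± 31.6), Apoa4 (614 ± 279), Apoc2 (305 ± 34.8) and Mttp (245 ± 20.7) made up the lower part. Apob and Apoa4 did not differ beyond the spread of Apoa4 (338 to 855 TPM). In the knockdown samples the mean of Apoa1 (6420 ± 955 TPM) stood above that of Apoa2 (5540 ± 1020) by less than their SD between samples. Within samples, the count ratios above with lengths of 1035 and 458 bases put Apoa1 above Apoa2 in every knockdown sample and below it in every control. Apoc1 (2230 ± 377) and Apoc3 (2170 ± 210) did not differ beyond their SD. Apoc2 stood at 1040 ± 118 TPM, above Apoa5 (614 ± 82.6). By rank among all genes Apoc2 went from 392 to 99, Apob from 172 to 271 and Apoa5 from 124 to 214. Apoa2 (12 to 21), Apoa4 (179 to 226) and Mttp (502 to 513) also moved down in rank. Apoe (5 to 3), Apoc1 (58 to 47) and Apoc3 (70 to 50) moved up, and Apoa1 stayed at 17. The mean of Mttp was 275 ± 25.7 TPM in the knockdown samples, above its control mean. Together the 10 transcripts took 3.1 ± 0.125% of all counts in the controls and 2.37 ± 0.225% in the knockdown samples (SD, n = 4 each).

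Of the 10 genes, 7 lie in 2 clusters: Apoa1, Apoc3, Apoa4 and Apoa5 within 43.3 kb of chromosome 9, and Apoe, Apoc1 and Apoc2 within 27.6 kb of chromosome 7. Other protein-coding genes within 100 kb did not move as 1 block with them. Beside the chromosome 9 cluster, the kinase gene Sik3 fell by 0.57 ± 0.08, the zinc-finger gene Zpr1, 1145 bases from Apoa5, held 65.4 CPM in both groups (log2 difference 0.00, adjusted p = 0.992, edgeR; 0.57 and called under total-count scaling), and the splicing factor gene Bud13 rose by 0.35 ± 0.11. Beside Apoe, the mitochondrial import gene Tomm40 fell by 0.47 ± 0.09. Of the 11 neighbours of the chromosome 7 cluster 5 fell and 3 rose, where 27.8% and 29.5% of all genes did. Under total-count scaling 2 were lower and 6 higher, where 7.72% and 63.9% were. Those 2 were Apoc4, itself an apolipoprotein gene, and Gm44805, which shares exon bases with Apoc2, and both were also among the 5. Beside Apoa2, Tomm40l and the nuclear receptor gene Nr1i3 fell by 0.89 ± 0.08 and 1.58 ± 0.13 (these 2 genes overlap, so their counts may not be independent), while Fcer1g, an immune receptor subunit, rose by 1.80 ± 0.15. Beside Mttp, the alcohol dehydrogenase gene Adh7 fell by 1.5 ± 0.13 and Trmt10a, a tRNA methyltransferase gene, differed by -0.11 (adjusted p = 0.56, edgeR). Under total-count scaling Sik3 (0.00) and Tomm40 (0.10) did not pass and Trmt10a did (0.47), while Bud13, Tomm40l, Nr1i3, Fcer1g and Adh7 kept their direction and call. No protein-coding gene that was tested lies within 100 kb of Apob.

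Other apolipoprotein transcripts were also lower. Of 10 listed, 9 were tested, 6 fell and 0 rose, with a median of -0.80, and scaling to total counts gave 5 lower and 2 higher, with a median of -0.23. Beside this list and those that follow, 27.8% of all genes fell and 29.5% rose (median 0.00). Under total-count scaling 7.72% of all genes were lower and 63.9% higher (median 0.56). Apon, a liver-secreted relative of Apof, fell by 1.36 ± 0.10, from 437 ± 40.5 to 171 ± 17.2 CPM (SD, n = 4 each; adjusted p = 1.71e-06, edgeR). Apof, the lipid transfer inhibitor protein, fell by 0.80 ± 0.08 and Apoh, a phospholipid-binding plasma protein, by 1.06 ± 0.11. Apoc4 is described above. Clu, Apol9a and Apol9b did not pass the test, and Apod was too low to be tested.

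Genes of VLDL assembly and export were mixed. Of 21 tested, 9 fell and 4 rose (median -0.18), and scaling to total counts gave 2 lower and 11 higher (median 0.39). Which direction had more calls in this list thus depended on the scaling. Over all genes, more were called higher than lower under both (29.5% against 27.8%, and 63.9% against 7.72%). The list median lay below that of all genes under both scalings (0.00 and 0.56). Apobec1, the enzyme that edits the Apob message to its short form, rose by 1.21 ± 0.09, from 27.8 ± 2.26 to 64.2 ± 5.19 CPM (SD, n = 4 each; adjusted p = 1.69e-06, edgeR), and by 1.77 under total-count scaling. A1cf, an RNA-binding partner of that enzyme, fell by 0.88 ± 0.08 (adjusted p = 8.14e-06, edgeR) and by 0.31 under total-count scaling. The 2 partners thus moved in opposite directions under both scalings, and editing itself cannot be read from counts per gene. The lipid hydrolase genes Aadac and Ces1g had log2 fold changes of -0.68 ± 0.07 and 1.21 ± 0.12, that of Aadac being -0.12 and not called under total-count scaling, and Ces1g can share reads with its close Ces1 paralogs.

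In plasma lipoprotein remodelling, 7 of 12 genes fell and 3 rose (median -0.74), and scaling to total counts gave 5 lower and 4 higher (median -0.17). Pon1, an HDL-bound esterase, fell by 2.03 ± 0.13, from 475 ± 55.1 to 116 ± 19.5 CPM (SD, n = 4 each; adjusted p = 9.65e-07, edgeR), and Lipc, the hepatic lipase that Apoe-bearing remnants meet, by 1.46 ± 0.11. Lpl, the lipoprotein lipase that Apoc2 activates and that adult hepatocytes make little of, rose by 2.33 ± 0.21, from 30.6 ± 6.9 to 154 ± 36.1 CPM (adjusted p = 5.83e-06, edgeR). Pltp, the phospholipid transfer protein, rose by 1.03 ± 0.10. All 4 kept their direction and call under total-count scaling (-1.46, -0.89, 2.90 and 1.59). Macrophages make Lpl and Pltp as well, and their part was not tested.

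Among receptors and efflux transporters 4 of 10 fell and 2 rose (median -0.13), and scaling to total counts gave 0 lower and 6 higher (median 0.44). Abcg1, a sterol transporter abundant in macrophages, rose by 1.88 ± 0.14, and Vldlr, a receptor for triglyceride-rich particles, by 1.26 ± 0.25 from 1.93 ± 0.675 CPM. Abca1, which lipidates Apoa1, fell by 0.52 ± 0.09, a value of 0.06 under total-count scaling that did not pass. Of 22 regulators known to act on apolipoprotein genes, 13 fell and 0 rose (median -0.54), and scaling to total counts gave 4 lower and 6 higher (median 0.03). Ppara fell by 1.10 ± 0.09, the bile acid receptor gene Nr1h4 by 1.11 ± 0.12 and Cebpa by 1.15 ± 0.14. These 3 also passed under total-count scaling (-0.53, -0.53 and -0.60). Hnf4a, the hepatocyte factor that binds many apolipoprotein promoters, and Creb3l3, a fasting-induced activator of Apoa4 and Apoa5, fell by 0.86 ± 0.16 and 0.70 ± 0.10, and neither passed under total-count scaling (-0.29 and -0.13).

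**Figure D5:**
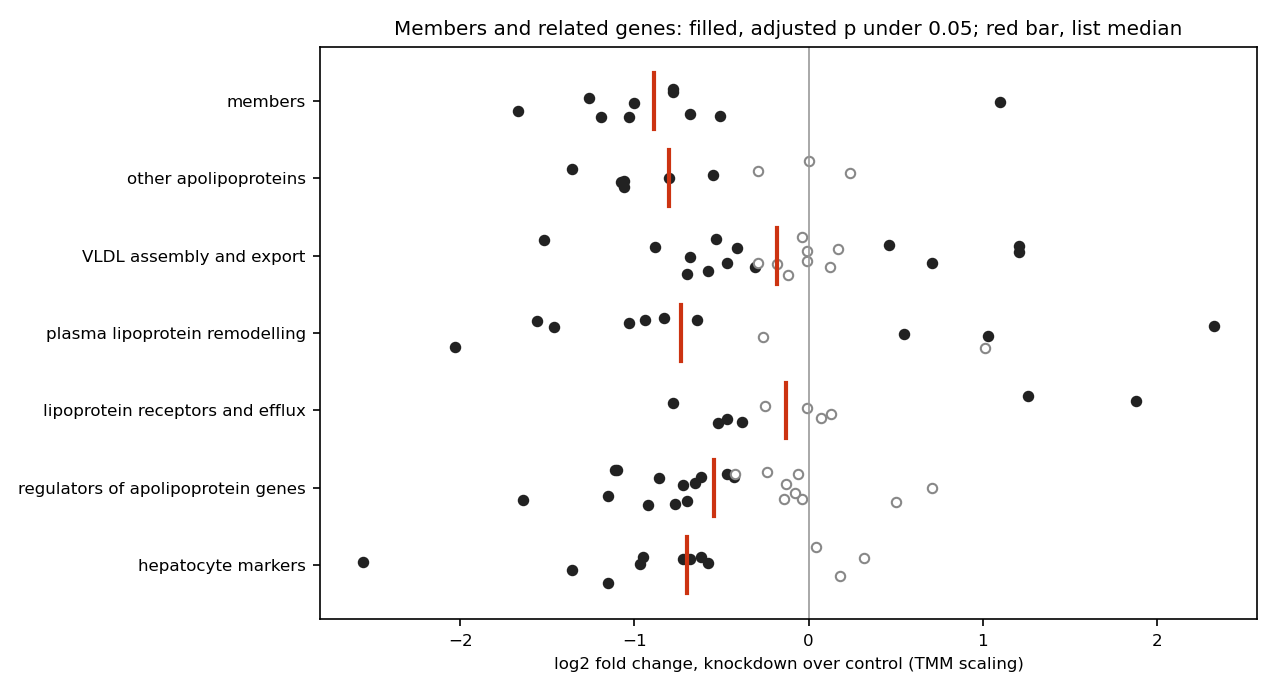
Log2 fold change of knockdown over control under TMM scaling (horizontal axis) of the members, 5 lists of related genes and hepatocyte markers, 1 point per gene tested, filled where the adjusted p was under 0.05, with the list median as a red bar (vertical scatter has no meaning). Members lie to the left of 0 except Apoc2 at 1.10, and the rightmost point among the related genes is Lpl at 2.33.

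Markers of other cells moved with these groups. Hepatocyte markers were abundant in all samples (summed 69100 to 89100 CPM in the controls against 63200 to 82400 CPM after knockdown), and 9 of 12 fell (median -0.70), while Alb and Trf, the albumin and transferrin genes, did not pass (0.04 and 0.18). Under total-count scaling 5 of the 12 fell and 3 rose. In bulk liver, fewer hepatocytes and less RNA per hepatocyte cannot be told apart. Macrophage markers, of which 11 of 14 tested rose and 1 fell, summed to 748 to 926 CPM in the controls against 1750 to 2020 CPM after knockdown, led by Cd5l (262 ± 32.6 to 719 ± 59.2) and Csf1r (110 ± 12.5 to 254 ± 31.2 CPM; SD, n = 4 each). T and NK cell markers (10 of 12 rose and 1 fell) summed to 16.1 to 31.3 and 48.2 to 67.1 CPM, with Cd8a and Gzmb highest by the mean over all 8 samples, while Cd4, the highest in the controls, was the 1 that fell (6.99 ± 0.55 to 2.07 ± 0.341 CPM), and stellate cell markers (7 of 10 rose) to 182 to 225 and 468 to 804 CPM, with Col3a1 and Dcn highest by that mean. Cholangiocyte markers (3 of 6 rose, 1 fell, with Spp1 among the highest) and endothelial markers (1 of 6 rose, 2 fell, with Stab2 and Kdr highest by that mean) changed less in sum, 64.6 to 83.0 against 97.5 to 131 CPM and 243 to 280 against 154 to 295 CPM. Enterocytes also make Apob, Apoa4 and Mttp. Of 7 enterocyte markers, 2 passed the filter on low counts, of which 1, Vil1, rose (adjusted p = 0.000194, edgeR), and Cdx1 and Cdx2 had 0 counts in all 8 samples. Vil1 stood at 0.0369 ± 0.0463 and 0.658 ± 0.16 CPM and Fabp2, which liver also expresses, at 64.9 ± 5.06 and 59.3 ± 2.29 CPM (SD, n = 4 each). The part of these other cells in the members' values was not tested.

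The transcripts whose profile over the 8 samples was nearest to that of Apob, by the root mean square difference of centred log2 CPM, were Pnpla8 (0.0511), Tmem30a (0.068) and Lactb2 (0.0689). Those nearest to Mttp were Ipo8 (0.0361), Akap11 (0.0455) and Pdzd8 (0.0496). Each differs between groups by nearly the same amount as the gene it was matched to (-1.02, -1.10 and -1.05 for the first 3 and -0.48, -0.51 and -0.51 for the others). That likeness follows from how they were chosen and is not a separate result.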

How the data were processed

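Liver RNA, depleted of ribosomal RNA per the labels' protocols, was sequenced in 4 control and 4 knockdown samples. The submitters' processing notes name fastp 0.19.5, Bowtie2 2.2.9, GATK 3.8 and SAMtools 1.9 and mm10. Counting program, annotation and strand setting: not given in the sources used here. Deposited by the authors were estimated counts per gene, not normalised, 10.9% of them not whole and rounded here. The 645 assembled loci (0.676 to 1.08% of counts) were left out. The authors also deposited a comparison table with fold changes (a ratio of knockdown over control), their log2 values, p-values and gene lengths, per the file headers. Columns were mapped by the code in each sample's label. Positions are from GENCODE mouse release 21 (mm10). Replicates differed by more than counting noise (chi-square per degree of freedom of at least 8.94). Pairs with control replicate 4 gave 43.4 to 63.4, the other control pairs 18.8 to 22.2 and knockdown pairs 8.94 to 34.

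edgeR 4.0.16 in R 4.3.3 tested all genes kept by filterByExpr, with TMM factors and Benjamini-Hochberg adjustment at 0.05. On simulated data the share of false calls was above the nominal one, so calls near the threshold are less certain. Ratios were tested in SciPy 1.17.1. The replicate numbers were not taken to pair the samples. Alternatives used DESeq2 1.42.0, limma 3.58.1 (voom), RLE, upper-quartile and no factors, other filters, the assembled loci kept, a replicate block, the letter in the sample code (C or D), and each sample left out. Named were all members, up to 4 called genes per list with the smallest p, the 2 most abundant genes per marker list, up to 3 nearest neighbours per locus and the 3 nearest profiles to Apob and Mttp. Hnf4a, Creb3l3, Cd4, Cdx1 and Cdx2, and the genes listed as not passing were named after their values were seen. Some genes that this rule names are not reported here. Members and lists were chosen with earlier results of these data known.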

Additional observations from a re-analysis of the deposited data

Results flagged for a closer look

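Of 74 groups of 4 samples examined, 7 held a sample set apart from the other 3 by more of the group's range than Dixon's critical value for 4 samples, where chance gives about 1 group in 20. Knockdown replicate 3 was the highest of its group for Apoa1 (3810 CPM, the others 2480 to 2700), Apoa5 (868, the others 593 to 633) and Apoe (12000, the others 8590 to 9080), and the lowest for Lpl (101, the others 168 to 180). That sample also held the most Eif4ebp3 of its group (37.2 CPM, the others 9.62 to 19.5), and a link was not tested. All 3 apolipoprotein values remained below every control, and without that sample Apoa1, Apoa5 and Apoe had the largest falls among the fits that each left out 1 sample (-1.35, -1.40 and -0.91).

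Lipc was lowest in control replicate 3 (117 CPM, the others 142 to 145), Pltp in knockdown replicate 4 (97.3, the others 106 to 107) and Aadac in knockdown replicate 2 (167 CPM, the others at 171). The last 2 gaps are small beside the differences between the groups.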

How the results depend on the processing

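Under 19 other settings per transcript, listed with the processing, Apoa1, Apoa2, Apoa5, Apob, Apoc1 and Apoc2 kept direction and call in all. Apoa4 lost its call in 13 (log2 fold changes from -1.09 to -0.19). Under total-count scaling 5 members were lower rather than 9, Apoc3 (-0.12) and Apoe (-0.21) lost their calls, and Mttp turned to 0.06. Of the 75 related genes 29 were then higher and 16 lower, where 63.9% and 7.72% of all genes were. With TMM factors 9 were higher and 39 lower, where 29.5% and 27.8% of all genes were. With each sample left out in turn, 8 to 9 members and 38 to 43 related genes were lower, and 1 member and 8 to 12 related genes higher. With Apoc2, Apoc4 and Gm44805 summed, the Apoc2 value of 1.10 became -0.22 by the construction of the sum.

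Same-numbered samples did not deviate together (correlations of -0.175, -0.033, 0.059 and 0.174 for numbers 1 to 4), and 2 of 8 samples correlated best with their own number. With the replicate block, 8 members were lower and 1 higher, the call lost being that of Apoa4 (-0.65, adjusted p = 0.122), and 39 related genes were lower and 11 higher. The samples coded C alone gave 9 lower members and 1 higher, and with 1 sample per group the D samples alone allow no test. The ratios cannot pass in smaller designs. The paired sign-flip test cannot go below 0.125. Without single samples the log2 shift ranged from 0.49 to 0.55 for Mttp over Apob, 0.37 to 0.58 for Apoa1 over Apoa2, 1.72 to 1.85 for Apoc2 over Apoc3 and -0.63 to -0.49 for Apoa5 over Apoc3.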
